A study of Canis lupus familiaris with 25 samples.

Results

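The genes described here are 10 genes of T lymphocytes: CD3E, CD3D, CD2, CD4, CD8A, CD28, LCK and IL7R, called the identity genes below, and the checkpoint and co-stimulatory receptors CTLA4 and ICOS. They were chosen by name, and each was read from the probe sets that the array's annotation pairs with that gene alone. All 10 were found, on 18 probe sets, among 15115 genes named by probe sets of a single gene. They were measured in canine simple mammary carcinomas that had metastasised to lymph nodes and in non-neoplastic mammary gland.

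The series holds 25 Affymetrix canine arrays, 1 per specimen, with 13 carcinomas and 12 glands from 14 dogs. Carcinoma and gland were both available from 11 dogs, while dogs 1 and 9 gave only a carcinoma and dog 8 only a gland. Each dog was treated as 1 replicate. Sections were macrodissected to hold more than 70% tumour or epithelial cells, per the labels' protocols. No treatment, strain or genotype groups are labelled. The dogs were 9 to 16 years old, with a median of 12.5 years. The carcinomas measured 0.5 to 5.0 cm, with a median of 3.0 cm, and the 12 dogs with a labelled survival lived 1 to 9 months after surgery, with a median of 5.5 months. Every carcinoma is labelled negative for ERα, and 11 are labelled positive and 2 negative for HER-2.

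T cells recognise antigen through the T cell receptor, which signals through the CD3 chains. LCK, a tyrosine kinase carried by the co-receptors CD4 and CD8, phosphorylates those chains. CD28 gives the second signal that a resting T cell needs, and CTLA4 binds the same ligands, CD80 and CD86, more tightly and restrains the response. ICOS is a co-stimulatory relative of CD28 that appears after activation. Regulatory T cells carry CTLA4 constitutively, and conventional T cells gain it on activation, so in a tumour the CTLA4 level need not follow the level of T cell identity genes. In the dog's RefSeq annotation CD28, CTLA4 and ICOS are consecutive protein-coding genes on chromosome 37, and CD3G, CD3D and CD3E are consecutive on chromosome 5.

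The deposited values were alike between arrays, with median log2 values of 3.56 to 3.77 and 47.6% to 48.9% of probe sets above log2 4, the level used as the lower limit of measurement. They had already been processed, so this likeness is no measure of array quality. The signal ratio of 3′ over 5′ actin control probe sets, a sign of RNA integrity, was 2.97 to 4.66 on the log2 scale in carcinomas and 3.81 to 4.98 in glands. Of the 12 epithelial markers tested in the paired comparison described next, 0 were called by limma, with a median log2 difference of -0.03 between carcinoma and gland, 1 at an unadjusted p under 0.05, and 13 of 13 mitosis genes rose. Of all genes tested there, 18.4% were called higher and 11.1% lower in carcinomas. Skeletal muscle genes stood at a mean log2 level of 9.09 to 11.0 in the glands of dogs 7, 10, 11, 12, 13 and 14 and at 3.38 to 4.91 on all other arrays. The carcinoma of dog 3 stood apart on the 10 T cell genes, with the highest carcinoma level of 9 of them. Among genes above log2 4 in at least 4 carcinomas it was highest for CTLA4 and for 4 of 5 identity genes. Over all 8817 such genes it was highest for 6.37%. Results that rest on it are given with and without it.

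Pooled over dogs, the T cell identity genes were not called different between carcinoma and gland, and CTLA4 was the 1 gene of the 10 that passed the test. CTLA4 was above the limit of measurement in 5 carcinomas and near or under it in the other 8 and in nearly all glands. Of the 10 genes, 6 exceeded log2 4 on at least 6 of the 22 paired arrays and were tested; CD4, CD8A, CD28 and ICOS did not reach that limit. Of the 6 tested, 1 was called higher and 0 lower by limma at a Benjamini-Hochberg adjusted p under 0.05, against 29.6% of the 8885 genes tested called in either direction (28.4% of probe sets), 18.4% higher and 11.1% lower. At an unadjusted p under 0.05 the count was the same, 1 higher and 0 lower. The median difference was 0.51 for the 6 and 0.10 for all genes tested. In such bulk specimens, fewer cells of a type and less RNA per cell cannot be told apart.

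CD3E, the epsilon chain of the CD3 complex, was at a log2 signal of 7.28 at the lowest, 8.06 at the median and 10.99 at the highest in the 13 carcinomas, and at 7.17, 8.06 and 9.77 in the 12 glands. The groups overlapped over nearly their whole range, and the highest carcinoma, of dog 3, lay above every gland. The difference between carcinoma and gland over the 11 paired dogs was 0.00 ± 1.14 (SD, n = 11; adjusted p = 0.998), with 5 dogs higher in the carcinoma. Its direction was not stable: it was -0.30 without dog 3 and 0.18 without dog 13. A second CD3E probe set, with a wider range of 2.40 to 9.88 in carcinomas and 3.35 to 8.09 in glands, gave 0.69 ± 2.26 (SD, n = 11; adjusted p = 0.412).

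CD3D, the delta chain, ran from 3.80 through a median of 8.86 to 11.35 in carcinomas and from 5.83 through 8.40 to 9.49 in glands. Carcinomas thus reached both below and above the glands. The difference was 0.51 ± 1.59 (SD, n = 11; adjusted p = 0.396), positive in 8 of 11 dogs, 0.21 without dog 3, and 0.60 ± 1.70 on the other CD3D probe set. CD2, an adhesion receptor of T and NK cells, ran from 5.73 through 8.75 to 11.90 in carcinomas and from 6.56 through 8.49 to 10.60 in glands. Its difference was 0.51 ± 1.78 (SD, n = 11; adjusted p = 0.440), positive in 7 of 11 dogs, 0.11 without dog 3, and 0.19 ± 1.71 on the other CD2 probe set. LCK ran from 3.15 through 5.05 to 8.92 in carcinomas and from 3.44 through 4.31 to 6.51 in glands, a difference of 0.90 ± 2.17 (SD, n = 11; adjusted p = 0.261) that was positive in 6 of 11 dogs and was 0.49 without dog 3. For these genes the spread of the difference between dogs exceeded its mean.

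The same dogs moved the same way on several genes. In dog 3 the carcinoma exceeded the gland by 2.98 for CD3E, 3.42 for CD3D, 4.54 for CD2 and 5.08 for LCK. In dog 13 it was the other way, with differences of -1.79, -1.38, -1.85 and -2.31 for those genes, and in dog 12 they were -0.47, -2.01, -1.54 and -1.70. The gland of dog 13 was the highest gland for CD3E, CD3D, CD2, LCK, CD4 and CTLA4. The glands of dogs 12 and 13 are among those with skeletal muscle signal, whose part in these values was not tested.

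IL7R, the interleukin-7 receptor chain of naive and memory T cells, followed these dogs in part, with differences of 1.12 in dog 3, -1.58 in dog 12 and 0.47 in dog 13, and its largest, 2.20, in dog 7. It ran from 3.55 through 4.38 to 6.68 in carcinomas and from 3.25 through 4.37 to 5.42 in glands, with its highest carcinoma also in dog 7. The difference was 0.14 ± 1.03 (SD, n = 11; adjusted p = 0.747), and the second IL7R probe set gave -0.15 ± 0.87.

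The co-receptors were near the lower limit of measurement and were not tested. CD4, the co-receptor of helper T cells and in dogs also a surface protein of neutrophils, was above log2 4 in 2 of 13 carcinomas, with a highest value of 4.93 in dog 3, and in 3 of 12 glands, at 7.56 in dog 13, 5.84 in dog 6 and 4.52 in dog 12. The highest CD4 values of the series were thus in glands. CD8A, the co-receptor of cytotoxic T cells, was above log2 4 in 2 carcinomas, at 7.04 in dog 3 and 4.39 in dog 7, and in 3 glands, of which dog 6 was highest at 4.69. CD28 exceeded log2 4 in 1 array, the carcinoma of dog 3 at 5.32, and stayed between 2.25 and 2.46 in all 12 glands.

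**Figure D1:**
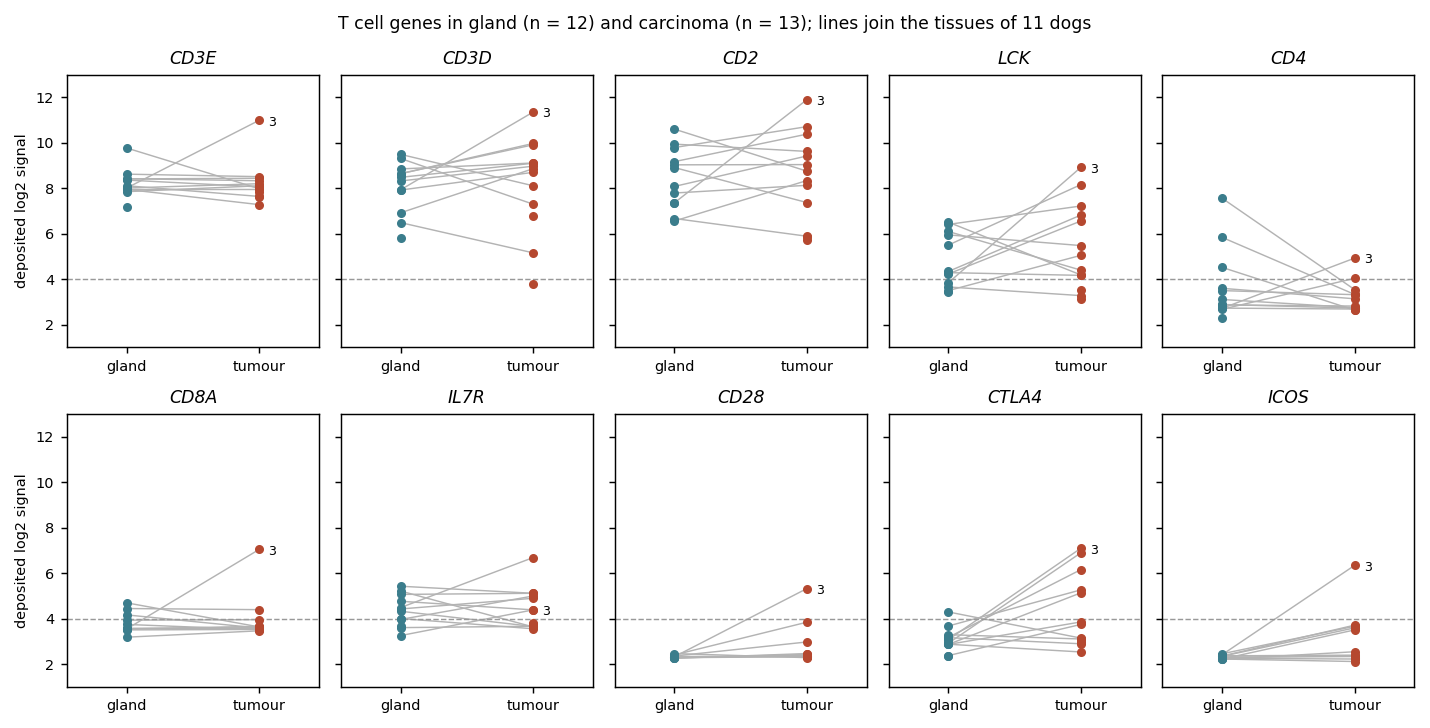
Deposited log2 signal of each gene in gland (left, 12 arrays) and carcinoma (right, 13 arrays), 1 point per array, with grey lines joining the tissues of the 11 paired dogs; the dashed line is log2 4, and the carcinoma of dog 3 is labelled. The identity genes overlap between tissues, while CTLA4 lies above log2 4 in 5 carcinomas and 1 gland, and levels are to be compared within a panel.

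CTLA4 was above log2 4 in 5 of 13 carcinomas, those of dogs 2, 3, 6, 7 and 11, and in 1 of 12 glands, that of dog 13. Its carcinoma levels were 7.09 in dog 3, 6.89 in dog 7, 6.15 in dog 6, 5.26 in dog 2 and 5.13 in dog 11, and at or below 3.85 in the other 8. Gland levels ran from 2.37 through a median of 2.99 to 4.29. The 5 high carcinomas lay above every gland, and the other 8 lay within the range of the glands.

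Within dogs, the CTLA4 difference was 4.01 in dog 3, 3.98 in dog 7, 2.98 in dog 6, 2.27 in dog 11, 1.59 in dog 2, 1.37 in dog 14 and 0.99 in dog 10. It was -0.20 in dog 5, -0.27 in dog 12, -0.34 in dog 4 and -1.15 in dog 13. The mean log2 difference was 1.38 ± 1.78 (SD, n = 11), with 7 of 11 dogs higher and a limma adjusted p of 0.0486. Since 11 of 12 glands lay under log2 4, no exact fold is given, and differences near 0 or below it have no clear sign; with values under log2 4 set to log2 4, a setting added after the data were seen, the mean was 0.93 ± 1.26 (SD, n = 11). The call was a narrow one: the adjusted p was 0.0960 without dog 3, 0.0984 without dog 7 and 0.0985 without dog 6, and it also exceeded 0.05 without dog 2, 10, 11 or 14, in the 5 dogs whose gland had no muscle signal (difference 1.61, adjusted p = 0.206) and with no filter on low values (adjusted p = 0.101). CTLA4 entered the test through 6 arrays, the fewest allowed, of which 5 were carcinomas, so that its entry already depended on the tissue where it was high. Its other probe set, above log2 4 in 1 array, gave 0.20 ± 0.67.

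ICOS was above log2 4 in 1 array, the carcinoma of dog 3 at 6.34, and so was not tested between tissues. The carcinomas of dogs 2, 7, 6 and 11 followed at 3.71, 3.66, 3.59 and 3.50, and the other 8 carcinomas were at 2.11 to 2.54. All 12 glands were at 2.21 to 2.45. The difference was 0.84 ± 1.19 (SD, n = 11) and positive in 9 of 11 dogs, at 3.92 in dog 3 and between 1.21 and 1.35 in dogs 2, 6, 7 and 11, and between -0.11 and 0.33 in the other 6. Most of these values lie below the limit of measurement, where differences are compressed.

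Whether CTLA4 or ICOS differed between the tissues by more than an identity gene was tested directly, over dogs, in 8 relations. The CTLA4 difference exceeded that of CD3E by 1.38 ± 1.25 (SD, n = 11), in 11 of 11 dogs (exact 2-sided sign-flip permutation test, p = 0.000977, the smallest that 11 dogs allow; adjusted p = 0.00781). It exceeded that of CD3D by 0.88 ± 1.15 in 9 of 11 dogs (adjusted p = 0.0885), that of CD2 by 0.87 ± 1.37 in 7 of 11 dogs (adjusted p = 0.115) and that of LCK by 0.48 ± 1.13 in 7 of 11 dogs (adjusted p = 0.295), none of which passed. The ICOS difference exceeded that of CD3E by 0.84 ± 0.60 (SD, n = 11; exact permutation p = 0.00195, adjusted p = 0.00781), in 10 of 11 dogs. Against CD3D, CD2 and LCK it was larger by 0.34, 0.33 and -0.06, with adjusted p between 0.417 and 0.891. CTLA4 was under log2 4 in both tissues of dogs 4, 5, 10, 12 and 14, where its differences are compressed. The CD3E differences were -0.67, -0.31 and -0.47 in dogs 4, 5 and 12. In dog 13, where CD3E differed by -1.79, CTLA4 went from 4.29 in the gland to 3.14 in the carcinoma. The dog count and p-value of CTLA4 against CD3E thus rest in part on values below the limit of measurement. Both passing relations are with CD3E, whose 2 probe sets disagree. With the mean of the 2 they were 1.04 for CTLA4 (adjusted p = 0.0781) and 0.50 for ICOS (adjusted p = 0.246), and with values under log2 4 set to log2 4 the ICOS relation was 0.21 (adjusted p = 0.528).

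T cell signal varied widely from carcinoma to carcinoma. The SD over the 13 carcinomas was 2.05 for CD3D, 1.94 for CD2, 1.91 for LCK and 1.61 for CTLA4, which placed them at percentiles 96.9, 96.2, 96.0 and 93.0 of the SDs of 8817 genes, whose median was 0.63. CD3E, at 0.90, and IL7R, at 0.91, lay at percentiles 72.0 and 72.7. Without dog 3 the SD of CD3E fell to 0.36, so most of its spread was that of 1 carcinoma, while CD3D kept 1.90, CD2 1.74, LCK 1.67 and CTLA4 1.44.

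The spread over glands was 1.13 for CD3D, 1.33 for CD2, 1.19 for LCK and 0.53 for CTLA4. The SD over carcinomas divided by that over glands was 1.81, 1.46, 1.61 and 3.04 for those genes, against a median of 1.36 for all genes. For CD4 the ratio was 0.44, its range being wider in glands. Without dog 3 the ratio was 1.61 for CD3D, 1.29 for CD2, 1.39 for LCK and 2.62 for CTLA4, and those of CD3E and CD8A fell from 1.48 to 0.56 and from 2.20 to 0.54.

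By the mean log2 level of CD3E, CD3D, CD2 and LCK, the carcinomas ran from dog 3 at 10.79 through dog 7 at 9.34, dog 11 at 8.93, dog 6 at 8.40, dog 10 at 8.27 and dog 2 at 8.01 to dog 4 at 5.41 and dog 9 at 5.10. The largest gap between neighbours in that order was the one below dog 3. The 2 carcinomas labelled HER-2 negative were those of dog 6, at 8.40, and dog 9, the lowest. A group of 2 was not compared further.

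The carcinoma of dog 3 was also the highest carcinoma for 5 of the 6 tested cytotoxic and NK cell genes, 6 of 10 pan-leukocyte markers and 7 of 17 macrophage and dendritic cell markers. Of the 7 tested genes of the T cell receptor complex and proximal signalling it was highest for 2, and the mean of that list was 6.89 in dog 3 and highest, at 7.22, in dog 2. It was highest for 1 of 6 B and plasma cell markers, 1 of 12 epithelial markers and 0 of 13 mitosis genes, against the 6.37% of all genes given above.

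**Figure D2:**
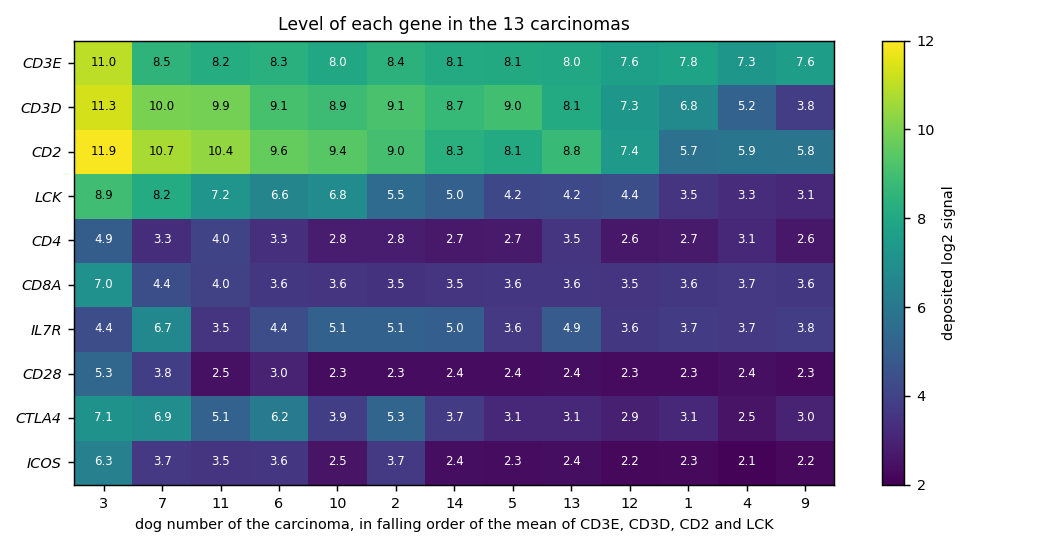
Deposited log2 signal of the 10 genes (rows) in the 13 carcinomas (columns, by dog number), ordered from left to right by falling mean of CD3E, CD3D, CD2 and LCK; colour and printed value give the level, to be compared along a row. Dogs 3, 7, 11, 6 and 2 hold the high CTLA4 and ICOS levels, and dog 10, with an identity mean between those of dogs 6 and 2, does not.

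CD3E, CD3D, CD2 and LCK varied together across carcinomas. In the 6 pairs of these genes Pearson's r was 0.715 to 0.945 and Spearman's rho 0.83 to 0.951 (n = 13; permutation tests with 100000 resamples, adjusted p of r from 9e-05 to 0.0126 over the 45 pairs of the 10 genes). The highest r was between CD2 and LCK. With the 2 carcinomas farthest from the median of the first gene of a pair left out, r in these pairs was 0.75 to 0.951. The carcinomas left out differed by pair. That of dog 3 stayed in for CD3D with CD2, the highest of these r, and for CD3D with LCK, where dogs 4 and 9 were left out. In the 12 glands the same pairs had r of 0.626 to 0.789 (permutation tests, adjusted p from 0.0303 to 0.0495). With the 2 farthest glands left out by the same rule, r was 0.364 to 0.752, lowest for CD3E with LCK. The gland of dog 13 stayed in for CD3D with CD2 and with LCK, where dogs 4 and 8 were left out.

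IL7R was paired less closely with them. Its r with CD3E, CD3D, CD2 and LCK was 0.232 to 0.512 in carcinomas, with adjusted p from 0.0846 to 0.432, and 0.335 to 0.551 in glands, so none of the 4 pairs passed in either tissue. That its r is lower than those of the other pairs was not tested.

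CTLA4 was higher in carcinomas with more signal from T cell identity genes. In the 5 carcinomas with CTLA4 above log2 4, CD2 was 9.04 to 11.90 and LCK 5.48 to 8.92. In the other 8 carcinomas CD2 was 5.73 to 9.42 and LCK 3.15 to 6.82, so that both genes overlapped between the sets. The carcinoma of dog 10 had LCK at 6.82 and CTLA4 at 3.85, while that of dog 2 had LCK at 5.48 and CTLA4 at 5.26. These sets follow from the CTLA4 level and were given no test of their own.

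The coupling was tested as the slope of each probe set on the CTLA4 level over the 13 carcinomas. CTLA4 was at most 3.85, under the limit of measurement, in 8 of them and at least 5.13 in the other 5. The slopes per log2 unit thus rest in part on that gap and on compressed values. Of 5 identity genes tested, LCK and CD2 passed, with positive slopes, against 0.295% of 8816 genes called positive and 0.284% called negative (0.499% of probe sets in either direction). LCK rose by 1.08 ± 0.14 (SE) log2 units per log2 unit of CTLA4 (limma adjusted p = 0.0109; r = 0.908), and CD2 by 1.04 ± 0.17 (adjusted p = 0.0194; r = 0.858). The slope of CD3D was 0.97 ± 0.23 (adjusted p = 0.0728; r = 0.762) and that of CD3E 0.43 ± 0.11 (adjusted p = 0.0961; r = 0.763). The second CD3E probe set gave 1.13 ± 0.23 (adjusted p = 0.0438). IL7R had a slope of 0.30 ± 0.14 (adjusted p = 0.341; r = 0.535).

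The median r with CTLA4 over all genes was 0.008, with its 5th percentile at -0.573 and its 95th at 0.614. Permutation tests of the same pairs gave an adjusted p of 0.000257 for LCK, 0.000491 for CD2, 0.00589 for CD3D, 9e-05 for CD3E and 0.069 for IL7R, and rho was 0.885, 0.896, 0.89, 0.934 and 0.56.

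The slopes barely moved without dog 3, at 1.01 for LCK and 0.97 for CD2, but their adjusted p became 0.105 and 0.147. With dogs 3 and 7 both left out, r was 0.806 for LCK, 0.756 for CD2, 0.657 for CD3D and 0.831 for CD3E.

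With PTPRC, the pan-leukocyte gene that encodes CD45, as a covariate, the slope was 0.73 for LCK (adjusted p = 0.267) and 0.54 for CD2 (adjusted p = 0.413). PTPRC itself had a slope of 0.49 on CTLA4 (adjusted p = 0.0679; r = 0.785). In the 9 carcinomas whose titles carry the suffix "_b", of unstated meaning, the slopes were 0.99 for LCK and 0.84 for CD2 (adjusted p = 0.126 and 0.128). The other 4 carcinomas were too few for a value of their own.

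In glands, CD3E, CD3D, CD2 and LCK overlapped both the carcinomas with CTLA4 above log2 4 and the other carcinomas. CD2 was 6.56 to 10.60 in glands, against 9.04 to 11.90 and 5.73 to 9.42 in those sets. The glands of dogs 11 and 6 serve as examples. In the gland of dog 11 LCK was 6.41, CD2 9.17 and CTLA4 2.86. In its carcinoma LCK was 7.22, CD2 10.38 and CTLA4 5.13. In the gland of dog 6 LCK was 4.23, CD2 9.94 and CTLA4 3.17. In its carcinoma LCK was 6.56, CD2 9.62 and CTLA4 6.15, so LCK rose beside CTLA4 while CD2 did not. Across the 12 glands CTLA4 correlated with CD3E at r = 0.881 (permutation test, adjusted p = 0.023 over 45 pairs) and with CD2 at r = 0.672 (adjusted p = 0.0495; adjusted p of rho = 0.122), while CD3D at r = 0.677 and LCK at r = 0.645 did not pass (adjusted p = 0.0561 and 0.0572). With the glands of dogs 2 and 13 left out, r was 0.732 for CD3E, 0.588 for CD3D, 0.486 for CD2 and 0.389 for LCK. CTLA4 lay under log2 4 in 11 of these 12 glands.

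**Figure D3:**
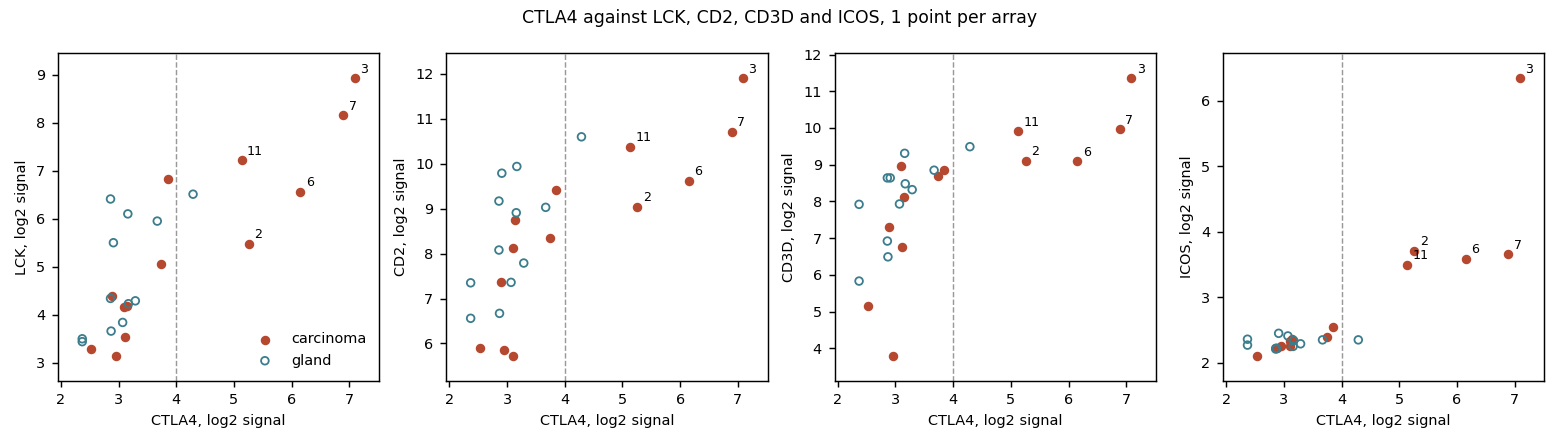
Log2 signal of LCK, CD2, CD3D and ICOS (vertical axes) against CTLA4 (horizontal axes), 1 point per array, filled for 13 carcinomas and open for 12 glands; the dashed line marks log2 4, and numbers give the dogs with CTLA4 above it in the carcinoma. LCK and CD2 rise with CTLA4 over the carcinomas, and 11 of the 12 glands sit left of the line, the one right of it being the gland of dog 13, with the highest LCK, CD2 and CD3D of the glands.

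ICOS followed CTLA4 in that the 5 carcinomas with CTLA4 above log2 4 were the 5 with the highest ICOS. ICOS was at least 3.50 in these and at most 2.54 in the other 8. The ICOS levels fall into separate sets and lie under log2 4 in all carcinomas but that of dog 3. Over the 13 carcinomas r was 0.873 and rho 0.978 (permutation tests, adjusted p = 9e-05 for both). These values rest in part on the gap between the sets. Within the 8 carcinomas of lower CTLA4 r was 0.934, with both genes under log2 4, and it was not tested. In the 12 glands, also under log2 4 for ICOS, r was 0.216 and rho 0.266 (permutation tests, adjusted p = 0.637 and 0.521).

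In the slope of each probe set on ICOS, 1 of the 6 tested genes of the 10 passed, against 0.0227% of 8817 genes called positive and 0% negative (0.014% of probe sets in either direction). That gene was CD3E, at 0.73 ± 0.09 (SE; limma adjusted p = 0.0128). The call rested on dog 3, the 1 carcinoma with ICOS above log2 4: without it the slope was 0.47 (adjusted p = 0.528). The second CD3E probe set gave 1.42 ± 0.35 (adjusted p = 0.194), and CTLA4 had a slope of 1.19 ± 0.19 (adjusted p = 0.0718), which became 2.09 (adjusted p = 0.0172) without dog 3. Every ICOS level was then under log2 4, the highest at 3.71, so that slope rests on values below the limit of measurement. Slopes of 1.33 for LCK, 1.31 for CD2 and 1.23 for CD3D did not pass (adjusted p = 0.104, 0.129 and 0.265).

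The 5 genes whose level was most like that of CTLA4 over the 13 carcinomas, among 8811 other genes, were GBP6 (r = 0.93), IL4I1 (r = 0.924), LOC607937 (r = 0.906), PDCD1LG2 (r = 0.9) and GBP5 (r = 0.895). GBP5 and GBP6 encode interferon-induced guanylate-binding proteins, IL4I1 an amino acid oxidase of antigen-presenting cells, and PDCD1LG2 the PD-1 ligand PD-L2. Nearest to the mean of CD3E, CD3D, CD2 and LCK were LOC480788 (r = 0.98), LOC607937 (r = 0.978), the tryptophan-degrading enzyme gene IDO1 (r = 0.964), B2M (r = 0.949), which encodes the light chain of MHC class I, and GBP6 (r = 0.948). PDCD1LG2, CXCR3, SNX20, BATF and IL2RB were nearest to ICOS, in ranking by an r that the separate ICOS levels dominate. These r values describe 13 arrays and have no test.

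Other genes of T cells were read from lists chosen by function. Of 19 genes of the receptor complex and its proximal signalling on the array, 7 were tested between carcinoma and gland and 0 were called. Over all genes tested, 29.6% were called in either direction. CD3G, the gamma chain, differed by 0.77 ± 2.17 (SD, n = 11; adjusted p = 0.336), and the transcription factor genes TCF7 and LEF1 by 0.99 ± 1.65 and 1.92 ± 2.82 (adjusted p = 0.116 and 0.0732). Of 7 cytotoxic and NK cell genes tested, 0 were called, with GZMA, a granule protease, at 1.40 ± 1.96 (adjusted p = 0.0644). Pan-leukocyte markers also gave 0 of 10 called, with PTPRC at 0.55 ± 1.54 (adjusted p = 0.341). At an unadjusted p under 0.05 these lists held 2, 2 and 0 genes, all higher in carcinomas, and their median differences were 0.31, 0.72 and 0.42.

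Among 17 co-stimulatory and inhibitory receptors on the array other than CTLA4, ICOS and CD28, 4 were tested. Of these 1 rose, against 18.4% of all genes tested. That was LAG3, an inhibitory receptor that binds MHC class II, at 0.71 ± 0.69 (SD, n = 11; adjusted p = 0.0259), higher in 10 of 11 dogs, at group means of 3.87 and 3.15 that both lie under log2 4. LAG3 was above log2 4 in 5 carcinomas and 1 gland, so it was tested mainly through the carcinomas, where it was high. With values under log2 4 set to log2 4 the difference was 0.26 ± 0.46, and the call was lost without dog 4, 7, 10 or 11 (adjusted p up to 0.0583) and with the actin ratio as a covariate (0.58, adjusted p = 0.0895). PDCD1, which encodes PD-1, and FOXP3, the transcription factor of regulatory T cells, did not exceed 2.16 and 2.27 on any array and give no information here.

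Of 9 tested ligands of these receptors, 4 rose and 0 fell, against 18.4% and 11.1% of all genes tested. TNFSF18, the ligand of the receptor GITR, rose by 1.80 ± 1.24 (SD, n = 11; adjusted p = 0.00291) in 11 of 11 dogs. It was above log2 4 in 7 carcinomas and 0 glands, so it was tested through the carcinomas alone, and with values under log2 4 set to log2 4 the difference was 1.10 ± 1.12. CD80 and CD86, the ligands that CD28 and CTLA4 share, rose by 1.05 ± 1.21 and 0.92 ± 1.16 (adjusted p = 0.0337 and 0.0460), in 10 and 9 of 11 dogs. NECTIN2, an adhesion protein that binds TIGIT and CD226, rose by 0.72 ± 0.81 (adjusted p = 0.0396) in 9 of 11 dogs, a call lost without any one of 7 dogs (adjusted p up to 0.0803). The call of CD80 was lost without any one of 5 dogs (4, 5, 10, 11 or 14) and that of CD86 without any one of 8, with adjusted p up to 0.0674 and 0.0909. With the actin ratio, a sign of RNA integrity, as a covariate they were 0.72 and 0.65 (adjusted p = 0.123 and 0.161), and without a filter the adjusted p was 0.0736 for CD80, 0.0971 for CD86 and 0.0795 for NECTIN2.

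Of 5 tested helper, regulatory and cytokine genes, STAT4, a transducer of interleukin-12 signals, rose by 1.78 ± 1.20 (SD, n = 11; adjusted p = 0.00254) in 11 of 11 dogs. GATA3, a factor of type-2 helper cells and also of luminal mammary epithelium, fell. Of 10 tested homing and T zone genes, 3 rose and 3 fell, against 18.4% and 11.1% of all genes tested. ITGA4, an integrin chain for entry into inflamed tissue, rose by 1.54 ± 1.32 (adjusted p = 0.00840). CXCL10 and CXCL13, chemokines that attract T cells and follicular cells, rose by 2.25 ± 2.55 and 3.15 ± 3.53 (limma adjusted p = 0.0271 and 0.0256). CXCL13 was above log2 4 in 8 carcinomas and 2 glands, with a gland mean of 3.25. It was thus tested mainly through the carcinomas, and its difference is not exact. The chemokine genes CXCL12 and CCL21 fell by 2.80 and 3.09, and S1PR1, the receptor by which lymphocytes leave tissue, fell by 1.81 (SD 1.59, 1.98 and 1.61, n = 11; adjusted p = 0.000825, 0.00164 and 0.00945). S1PR1 was above log2 4 in 6 glands and 2 carcinomas, so it was tested mainly through the glands, and with values under log2 4 set to log2 4 its difference was -1.12 ± 1.41. CXCL12 and CCL21 are made by stromal and lymphatic cells, and 8 of 13 fibroblast and endothelial markers fell, against 11.1% of all genes tested. The part of stromal, endothelial and lymphatic cells in the falls of CXCL12, CCL21 and S1PR1 was not tested. In the 5 dogs whose gland had no skeletal muscle signal, 1 of the 11 called genes tracked from these lists, CXCL12, was still called at this smaller n. Differences there were 2.34 for TNFSF18, 2.23 for STAT4, 1.85 for ITGA4, 1.54 for CD80 and 1.27 for CD86, each at least as large as in all 11 dogs. They were smaller in size for NECTIN2 (0.26), LAG3 (0.63), GATA3 (-3.2), CXCL12 (-2.47), S1PR1 (-1.5) and CCL21 (-1.86).

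Over the carcinomas, 1 of 7 receptor complex genes, 1 of 4 receptors, 1 of 10 ligands, 1 of 5 helper and cytokine genes, 2 of 9 homing genes, 0 of 6 cytotoxic genes and 1 of 17 macrophage and dendritic cell markers were called with a positive slope on CTLA4, against the 0.295% of all genes. Without dog 3, or without dog 7, 0 probe sets were called over the whole array, so each of these calls rests on both. The genes were CD3G (slope 0.93, adjusted p = 0.0194), CD27 (1.00, adjusted p = 0.0428), a co-stimulatory receptor, PDCD1LG2 (0.80, adjusted p = 0.0130), BATF (0.57, adjusted p = 0.0348), a transcription factor of activated T cells, ITGA4 (0.68, adjusted p = 0.0194), the chemokine receptor gene CXCR3 (0.67, adjusted p = 0.0449) and LAMP3 (0.77, adjusted p = 0.0461), a marker of mature dendritic cells. PDCD1LG2 and CD27 were each above log2 4 in only 5 of the 13 carcinomas. The median r with CTLA4 was 0.763 for the 5 identity genes, 0.681 for 6 cytotoxic and NK cell genes and 0.66 for 10 pan-leukocyte markers. For the 7 receptor complex and proximal signalling genes it was only 0.189, with a range of -0.344 to 0.865. The median was 0.686 for 9 homing genes, 0.544 for 5 helper and cytokine genes, 0.52 for 10 ligands and 0.253 for 4 receptors. It was 0.47 for 13 mitosis genes, 0.291 for 17 macrophage and dendritic cell markers and 0.269 for 6 B and plasma cell markers. It was -0.453 for 12 epithelial and -0.604 for 6 basal and myoepithelial markers. A change in CTLA4 per T cell was not measured.

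**Figure D4:**
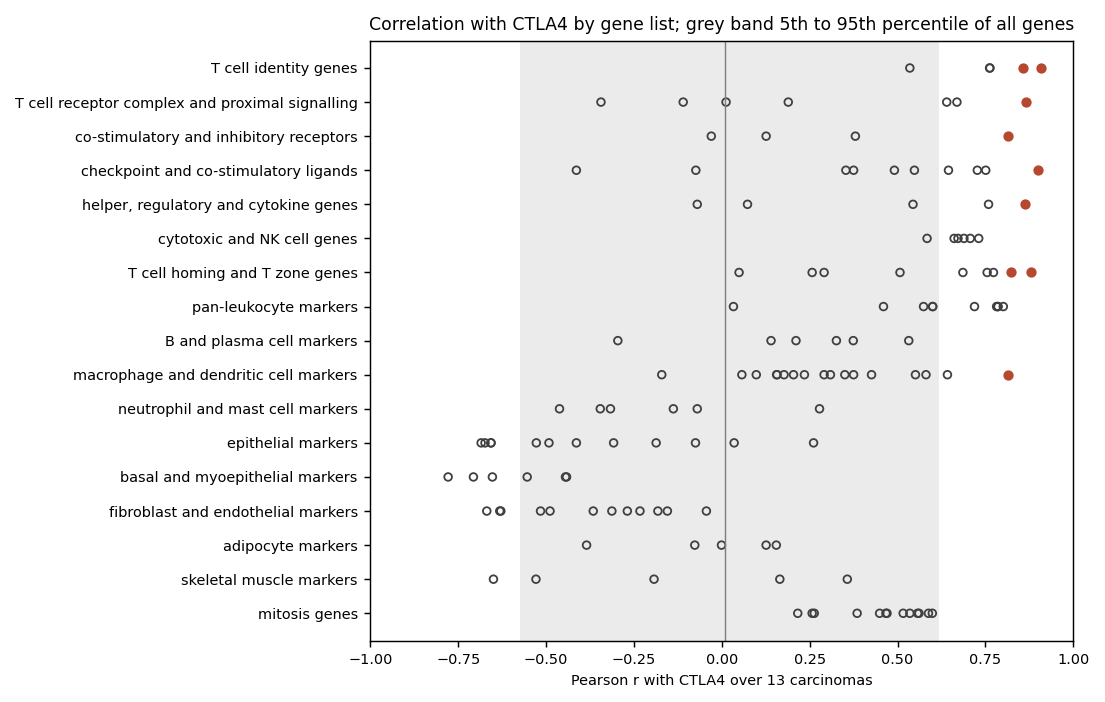
Pearson's r of each tested gene with CTLA4 over the 13 carcinomas (horizontal axis), by gene list (rows); filled points passed the limma slope test at an adjusted p under 0.05, the vertical line is the median r of all genes, and the grey band spans their 5th to 95th percentile. The identity genes lie between 0.535 and 0.908, and 6 basal and myoepithelial markers lie between -0.779 and -0.442.

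Of the 10 genes, the 6 above the limit were tested and 0 were called for a slope on postoperative survival (12 dogs) or on tumour size (13 dogs). No probe set of the 21434 tested passed either test, 0% called; 528 had an unadjusted p under 0.05 for survival and 2026 for size. The steepest slope on size among the tested identity genes was that of LCK, at -0.76 log2 units per cm (p = 0.0416; limma adjusted p = 0.513), and that of CTLA4 was -0.51 (adjusted p = 0.607).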

How the data were processed

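Each specimen was hybridised to 1 array after biotin labelling. The deposited values are log2 signals per probe set, for which the authors name Partek, GCRMA and RMA, per the submitters' processing notes, with neither roles nor versions. No further normalization was applied. Of 43035 probe sets, 111 controls were left out, and 29254 name 1 gene in the platform annotation. A probe set was tested if above log2 4 on at least 6 of 22 paired arrays (4 of 13 carcinomas for slopes), and a gene was represented by its tested probe set of highest mean over all 25 arrays. The paired comparison used limma 3.58.1 (R 4.3.3) with 2-sided tests, the dog as a block, trended eBayes and Benjamini-Hochberg adjustment over all tested probe sets. Pairing comes from the labels' dog numbers: after removing group means, the arrays of a dog correlated at 0.119 to 0.456, against a median of -0.064 between dogs. Slopes over carcinomas used the same tool with no block. Correlations were computed in Python 3.11.15 with scipy 1.17.1. Scripts were tested on simulated data. No 2 arrays were identical. The number of arrays limits the precision.

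Named were all 10 genes, the 4 tested genes of smallest p from each T cell list, 1 from each other list, list genes called with CTLA4 and the 5 genes of highest r with CTLA4, with ICOS and with the identity mean; CXCL10 and CXCL13 complete a count. The genes and lists were chosen with earlier results of these data known. Alternatives were no block, all arrays, other filters and scalings, each dog left out, dogs without muscle signal, covariates, glands, within-dog differences and other probe set choices. Sequences were not used here.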

Additional observations from a re-analysis of the deposited data

How the results depend on the processing

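Without the replicate block, CTLA4 differed by 1.38 (limma adjusted p = 0.0460) and 1 of the 10 genes was called, while LAG3, CD80 and NECTIN2 were no longer called (adjusted p = 0.0622, 0.0624 and 0.309). The count of genes called higher in carcinomas was 0 with no filter (CTLA4 adjusted p = 0.101), above log2 5, where CTLA4 is not tested, after quantile normalization (0.0532), in the dogs without muscle signal (1.61, adjusted p = 0.206), with the actin ratio as a covariate (1.16, 0.137) and with PTPRC as one (1.04, 0.109), and 0 to 1 with 1 dog left out. In the 5 dogs without muscle signal the probe sets called over the whole array were also fewer, 221 higher and 352 lower against 3735 and 2393.

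Genes coupled to CTLA4 numbered 2, and 1 with no filter, 0 with PTPRC, in the "_b" carcinomas, in glands or as within-dog differences, and 0 to 2 with 1 dog left out (0 without dog 3 or 7). Probe sets called with CTLA4 numbered 107, and 27 with no filter, 4 as within-dog differences and 0 with PTPRC, in the "_b" carcinomas, in glands, or without dog 3 or 7. Genes coupled to ICOS numbered 1, and 2 with no filter or the actin ratio, 0 with PTPRC, in the "_b" carcinomas, in glands or as within-dog differences, and 1 to 2 with 1 dog left out. Probe sets called with ICOS numbered 3, and 164 with no filter and 402 in glands. ICOS lay at 2.21 to 2.45 in all 12 glands, below the limit of measurement, so the gland count is no measure of coupling to ICOS. Relations in which CTLA4 or ICOS exceeded an identity gene numbered 2, and 0 with the mean of probe sets, 1 with values floored at log2 4, and 2 to 3 with 1 dog left out.

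Signs of differences that passed no test turned in some settings. The CD3E difference was -0.07 after quantile normalization, -0.23 with the actin ratio, -0.34 with PTPRC and -0.30 to 0.18 with 1 dog left out. CD2 was -0.06 with PTPRC. IL7R was -0.04 in the dogs without muscle signal, -0.02 with PTPRC, 0.00 as the mean of probe sets and -0.07 to 0.31 with 1 dog left out. The IL7R slope on ICOS was -0.13 with PTPRC and -0.61 in glands. ICOS less CD3D and less CD2 were -0.29 and -0.30 with the floor, and ICOS less LCK was -0.30 to 0.15 with 1 dog left out. With age as a covariate the CD3E slopes were -0.008 on survival and -0.034 on size, and with 1 dog left out the latter was -0.065 to 0.063. Slopes on survival with 1 dog left out ran from -0.014 to 0.243 for CD3D, -0.188 to 0.018 for CD2, -0.166 to 0.043 for LCK and -0.144 to 0.041 for CTLA4. The causes were not tested. Values under log2 4, which include most of CD4, CD8A, CD28 and ICOS, limit what can be said of those genes.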
